A study of Caenorhabditis elegans with 2 samples.

Results

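The genes described here encode the retinoblastoma-related DREAM complex of Caenorhabditis elegans and enzymes and complexes that modify chromatin. They were chosen by name: 24 listed genes, and every protein-coding gene whose symbol starts with set- (31 genes), hda- (8), jmjd- (8), swsn- (7), mys- (3) or hpl- (2). This gave 83 of the 19973 protein-coding genes annotated on the 6 chromosomes, and every listed gene was found. The promoter of each was examined for occupancy by TBX-7, a T-box transcription factor, in late embryos.

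Occupancy was measured by ChIP-seq (chromatin immunoprecipitation and sequencing) on whole hermaphrodite late embryos of strain OP311, collected 3 h after synchronization by egg bleaching. OP311 is a transgenic line in which TBX-7 carries a C-terminal GFP-FLAG tag. Per the sample descriptions, which call the tag eGFP, the precipitation used an anti-GFP antibody, while the antibody field names tbx-7. The samples form 1 group of 2 biological replicates, with no untagged strain or other condition to compare, and how the replicates' cultures differed was not stated. Whole embryos were used, so the cells in which a site was occupied cannot be told apart, and the labelled stage could not be checked against marker genes because peak lists hold no expression values. Read totals were not given, so the depth of each library is unknown.

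The DREAM complex joins a pocket protein related to retinoblastoma, an E2F-DP pair and the MuvB core, and is known for repressing cell cycle genes and, in worm somatic cells, germline genes. In C. elegans many of its subunits belong to the synMuv B genes, which act with the NuRD remodelling complex and histone methylation in vulval fate and germline gene repression. SET-domain proteins add methyl groups to histones and jumonji and LSD1-type enzymes remove them, MYST acetyltransferases and histone deacetylases set acetylation, and SWI/SNF and ISWI complexes move nucleosomes.

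TBX-7 summits lay in the promoters of 11 of the 83 genes: lin-35, lin-61, set-2, set-16, set-21, jmjd-1.2, hda-6, hda-11, mys-1, swsn-3 and mrg-1. The promoter window ran from 1000 bp before the gene start to 200 bp after it, and a gene is called bound when it holds at least 1 summit of the list that passed the authors' irreproducible discovery rate (IDR) procedure, which has 690 peaks. The 11 bound genes are 13.3% of the 83 (exact 95% interval 6.81% to 22.5%), beside 3.12% of all protein-coding genes (623 genes). The interval covers counting error only, and no test was made, since the genes were chosen with earlier results of these data known. Bound genes came from both ways of selection, with 3 of the 24 listed genes (12.5%) and 8 of the 59 genes taken by symbol (13.6%).

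The longer lists made before the IDR step held more of these genes, and more of all genes too. The pooled list was deposited as peaks and background for the IDR step, so a summit in it alone is not a call of binding. Of its 8759 peaks, 905 had a −log10 q-value, the authors' measure of false discovery, of at least 2. The same held for 1066 of 16060 peaks in replicate 1 and 621 of 9840 in replicate 2. In the pooled list of 8759 peaks, 35 of the 83 genes (42.2%, exact 95% interval 31.4% to 53.5%) had a promoter summit, beside 15.8% of all genes. In the replicate 1 list of 16060 peaks there were 43 (51.8%), beside 24.7%. In the replicate 2 list of 9840 peaks there were 29 (34.9%), beside 16.3%. The share among the DREAM and chromatin genes was above that of all genes in each of the 4 lists, which are not independent, since the pooled and IDR lists derive from the same 2 replicates. With each replicate alone, cut to its 690 strongest peaks, the same 11 genes were bound, beside 3.09% of all genes in replicate 1 and 2.99% in replicate 2. This is largely set by how the 11 were picked, since the IDR procedure keeps peaks that rank high in both replicates. In replicate 2, mrg-1 passed the cut at rank 688.

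**Figure D1:**
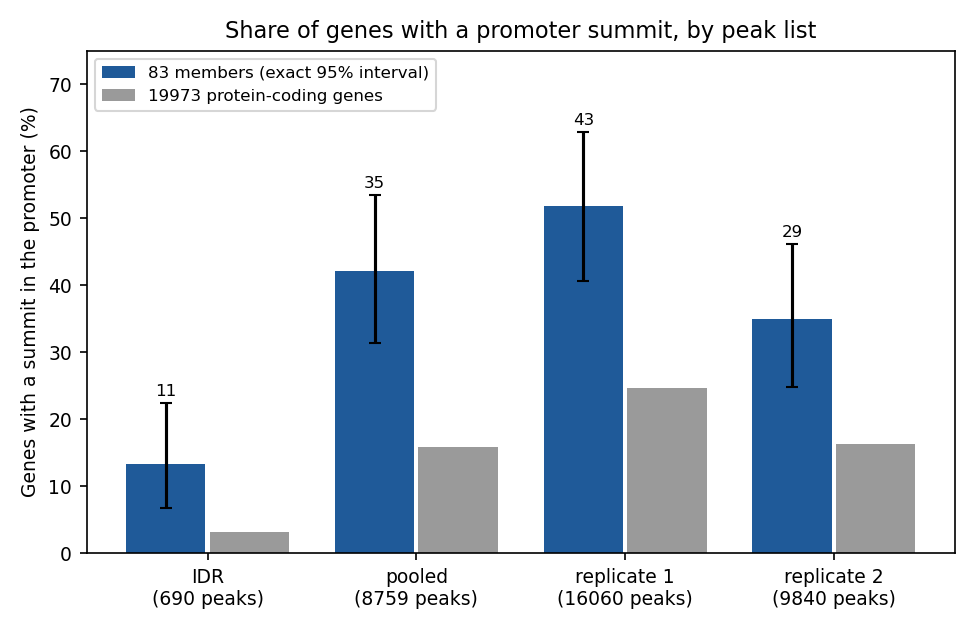
Bars give the percentage of genes with at least 1 promoter summit in each peak list, blue for the 83 DREAM and chromatin modifier genes with exact 95% intervals and grey for all 19973 protein-coding genes; numbers above the blue bars are gene counts. The blue bar is above the grey bar in each list, from 13.3% against 3.12% in the IDR list to 51.8% against 24.7% in replicate 1.

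The strength of a peak is given as the authors' deposited signal value, which is comparable only within 1 list, and rank 1 is the strongest peak of a list. The 690 IDR peaks were the 690 strongest of the pooled list, so both lists give the same value for a bound gene. The median rank of the 11 bound genes was 128 of 690, beside 274 for all 623 bound genes, and their median signal was 221 beside 150.2. The 10 strongest peaks included those of 2 of the 11 genes, lin-35 and jmjd-1.2, beside 18 of all 623 bound genes (2.89%). The 100 strongest held 4 of the 11 (36.4%), beside 126 of the 623 (20.2%). The 345 strongest peaks held 7 of the 11 (63.6%), close to the 60.2% of all bound genes.

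**Figure D2:**
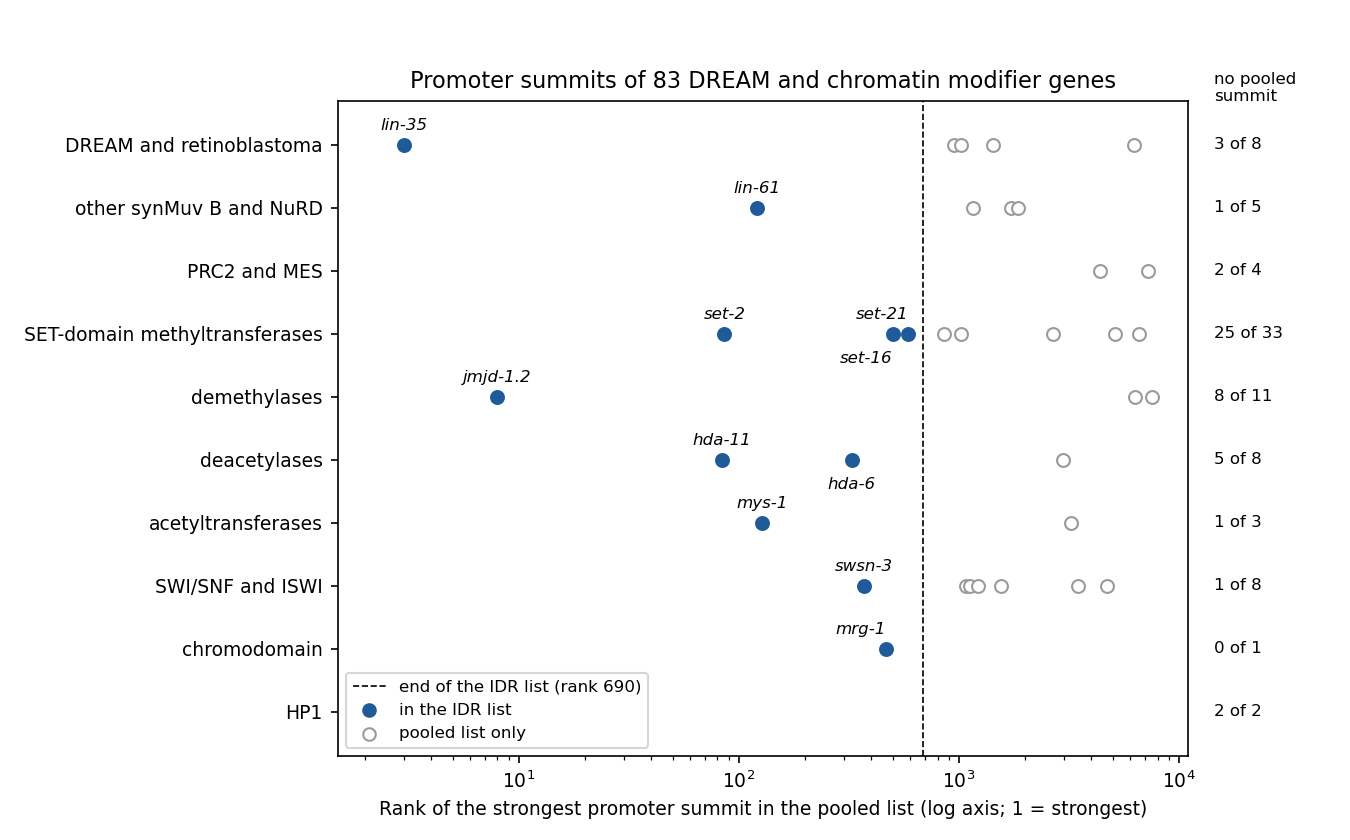
Each point is the strongest promoter summit of 1 gene, placed by its rank in the pooled list of 8759 peaks (log axis) and by role class; filled points are in the IDR list, open points are not, and the dashed line is the end of the IDR list at rank 690. The numbers at the right count the genes of each class with no pooled summit. The points of lin-35 (rank 3) and jmjd-1.2 (rank 8) lie far to the left of the others, and 3 DREAM genes and 4 SWI/SNF genes lie to the right of the line between ranks 947 and 1552.

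Of the 8 genes of DREAM, lin-35 alone was bound. It encodes the pocket protein related to retinoblastoma. Its peak, chrI:5807232-5807673 on ce11, had a signal of 709 and rank 3 of the IDR list. In replicate 1 the signal there was 404 (rank 3 of 16060) and in replicate 2 it was 302 (rank 3 of 9840), so the site stood near the top of each replicate's own list. The summit lay in intergenic sequence 245 bp upstream of the lin-35 start and 173 bp upstream of the start of vps-51, a gene for a vesicle tethering subunit transcribed the other way, and the peak cannot be assigned to either gene.

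The other DREAM genes were weaker or had no summit. lin-9, a MuvB core subunit, had a pooled signal of 71.6 at rank 947, with 39.4 in replicate 1 and 33.5 in replicate 2. lin-54, the DNA-binding MuvB subunit, had 69.2 at rank 1019, with 37.0 and 31.8. lin-53, which encodes an RbAp48-like histone-binding protein shared by several complexes, had 59.8 at rank 1423, with 37.8 and 22.1. These 3 genes were in both replicate lists but outside the IDR list, whose weakest peak had a signal of 86.0. In replicate 2 their −log10 q was low, at 0.695 for lin-9, 0.548 for lin-54 and 0.0709 for lin-53. efl-1, the E2F factor, had 36.3 at pooled rank 6255, and a summit in replicate 1 (24.9, rank 2975) but none in replicate 2. dpl-1, its DP partner, had no summit in any of the 4 lists, nor did the MuvB gene lin-52, and lin-37 had one in replicate 1 only.

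Among the other synMuv B and NuRD genes, lin-61 was bound (1 of 5). LIN-61 is an MBT-repeat protein that binds methylated histone H3. Its peak, chrI:7251420-7251863, had a signal of 228 at rank 121, with 138 in replicate 1 (rank 98) and 90.9 in replicate 2 (rank 169). The summit lay 360 bp upstream of lin-61 and 299 bp upstream of bub-1, a spindle checkpoint kinase gene on the opposite strand. lin-15B, a THAP-domain synMuv B gene, was in the pooled list (65.2, rank 1164) and both replicates (37.7 and 29.4) but not in the IDR list. Its −log10 q in replicate 2 was low, at 0.373. The pooled list held 4 of these 5 genes (80%, exact 95% interval 28.4% to 99.5%), beside 15.8% of all genes. Apart from lin-61, their pooled −log10 q ran from 0.724 to 1.49, below 2, and a pooled summit alone is not a call of binding.

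None of the 4 PRC2 and MES genes was bound, with an exact 95% upper limit of 60.2% (75% by the limit of 3 counts). That limit is above the 3.12% of all genes, so the count does not set this class apart. mes-6, the ESC-like PRC2 subunit, and mes-4, an H3K36 methyltransferase, reached the pooled list but not the IDR list, and mes-2, the E(z)-like H3K27 methyltransferase, and mes-3 had no summit in any list. The 2 HP1 genes, hpl-1 and hpl-2, whose proteins read methylated H3K9, were not bound either, and hpl-2 had a summit in replicate 1 only.

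Of the 33 SET-domain genes, 3 were bound (9.09%, exact 95% interval 1.92% to 24.3%), beside 3.12% of all genes. set-2 encodes a SET1-like H3K4 methyltransferase of the COMPASS complex. Its peak, chrIII:4930367-4930601, had a signal of 269 at rank 86, with 137 in replicate 1 (rank 99) and 129 in replicate 2 (rank 77). The summit was 269 bp upstream of the start, and no other gene start shared it. set-16, an MLL-like H3K4 methyltransferase gene, had a signal of 105 at rank 501 (chrIII:13643518-13643961), with 49.7 in replicate 1 and 50.2 in replicate 2. set-21 had 95.1 at rank 589 (chrIV:4390450-4390893), with 49.998 and 47.7, the weakest of the 11. These last 2 peaks lay between divergent gene pairs, set-16 with drr-2 and set-21 with rpl-7A, a ribosomal protein gene whose start was nearer the summit (82 bp against 172 bp). Just outside the IDR list stood met-1, an H3K36 methyltransferase gene, with a pooled signal of 75.8 at rank 855 and near-equal replicate signals of 41.0 and 40.9. set-4, an H4K20 methyltransferase gene, had 69.3 at rank 1018, with 39.4 in replicate 1 and 27.5 in replicate 2, where its −log10 q was low (0.266). Of the 33 genes, 25 had no pooled summit. The 8 with one were 24.2% (exact 95% interval 11.1% to 42.3%), beside 15.8% of all genes.

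Of the 11 demethylase genes, jmjd-1.2 was bound. JMJD-1.2 is a PHF8-like jumonji demethylase known in C. elegans for its part in the mitochondrial stress response. Its peak, chrIV:4660403-4660840, had a signal of 524 at rank 8, with 239 in replicate 1 (rank 15) and 281 in replicate 2 (rank 5). The site was among the strongest in both replicates. Its summit lay 388 bp upstream of jmjd-1.2 and 402 bp upstream of F29B9.11, about midway between these diverging starts. Of the other demethylases, jmjd-4 and the LSD1-like gene lsd-1 reached the pooled list and the rest did not.

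Of the 8 deacetylase genes, hda-11 and hda-6 were bound. hda-11, the HDAC11-like gene, had a signal of 273 at rank 84 (chrV:10526020-10526238), with 138 in replicate 1 (rank 97) and 136 in replicate 2 (rank 64). hda-6, the HDAC6-like gene, had 139 at rank 326 (chrIV:5364113-5364556), with 69.5 (rank 352) and 69.3 (rank 299). Both summits lay close to the gene start, at 58 bp and 29 bp upstream, and both sat between divergent pairs, with C35A5.8 and F41H10.4. hda-1, the class I deacetylase gene of NuRD, reached the pooled list but not the IDR list, and 5 of the 8 genes had no pooled summit. Among the 3 MYST acetyltransferase genes, mys-1, a Tip60-like gene, was bound. Its peak, chrV:7084826-7085078, had a signal of 221 at rank 128, with 129.8 in replicate 1 (rank 108) and 92.9 in replicate 2 (rank 161), 289 bp upstream of a start that no other promoter shared.

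The sequences at the summits of jmjd-1.2, hda-11, set-2, mys-1 and hda-6 are shown because these 5 genes are among the 7 with the strongest peaks and 4 of them share words. Each is the 101 bases centred on the summit, on the plus strand of RefSeq WBcel235, at chrIV:4660553-4660653 (jmjd-1.2), chrV:10526076-10526176 (hda-11), chrIII:4930423-4930523 (set-2), chrV:7084901-7085001 (mys-1) and chrIV:5364285-5364385 (hda-6). In jmjd-1.2 the capitals mark GGTGT, the core of the T-box word, here on the minus strand. In the other 4, capitals mark 5 six-mers that were more frequent at the other IDR summits than in promoters, in either orientation.
jmjd-1.2: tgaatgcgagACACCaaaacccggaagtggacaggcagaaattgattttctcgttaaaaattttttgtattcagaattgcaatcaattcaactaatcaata
hda-11: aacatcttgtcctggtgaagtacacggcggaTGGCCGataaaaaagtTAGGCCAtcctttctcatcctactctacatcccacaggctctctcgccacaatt
set-2: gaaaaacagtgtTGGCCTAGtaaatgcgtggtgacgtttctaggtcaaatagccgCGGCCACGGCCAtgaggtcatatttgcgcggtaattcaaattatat
mys-1: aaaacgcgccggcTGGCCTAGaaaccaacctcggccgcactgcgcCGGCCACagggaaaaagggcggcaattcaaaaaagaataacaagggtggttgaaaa
hda-6: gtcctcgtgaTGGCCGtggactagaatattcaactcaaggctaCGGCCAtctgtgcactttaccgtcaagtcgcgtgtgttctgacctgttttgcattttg

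The 5 six-mers were chosen after the data were seen, as those with the largest excess over promoters in the 679 IDR windows that hold no bound gene's summit described here. CGGCCA lay within 50 bp of the summits of hda-11, set-2, mys-1 and hda-6, beside 18.4% of those 679 windows and 1.75% of promoter windows of the same length, centred 245 bp upstream of every protein-coding gene. GGCCTA was at hda-11, set-2 and mys-1 (17.4% and 1.87%), as was the overlapping word AGGCCA (16.2% and 2.05%). GGCCAC was at set-2 and mys-1 (19.3% of the other IDR windows and 1.63% of promoters), and the same 2 genes held the word CTAGGC (15.6% and 1.79%). At least 1 of the 5 was found at 4 of the 11 bound genes (36.4%), close to the 32.3% of the other IDR windows and above the 5.94% of promoters. The 7 other bound genes held none. The full T-box word AGGTGTGA was at none of the 11 and at none of the 690 summit windows, beside 0.200% of promoters. The shorter GGTGTGA was likewise at none, beside 0.676% of promoters. GGTGT was at jmjd-1.2, swsn-3, mrg-1 and set-16, 4 of 11, beside 17.2% of IDR windows and 10.2% of promoters.

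The E2F-like word GCGGGAA was at none of the 11, beside 2.90% of IDR windows and 1.17% of promoters. The variant word GCGCGAA was also at none, beside 3.77% and 0.691%. Of the cell cycle homology words, TTTGAA was at set-2, lin-61, mys-1 and set-21, beside 19.0% of IDR windows and 29.7% of promoters, and TTCGAA was at none, beside 6.52% and 6.30%. CTGCGTC was at set-16 only, beside 4.35% and 1.31%. GAGAGA was at lin-35, hda-11 and set-16, beside 16.4% and 6.57%. In windows of 100 bp to either side TTTGAA was at 7 of the 11, beside 35.8% of IDR windows and 50.6% of promoters. In these wider windows TTCGAA was at hda-11, beside 14.5% and 12.4%, and GCGCGAA was at set-2, beside 5.22% and 1.39%. All words were searched on both strands, overlaps of words were allowed, and a match says only that the letters are there. The median GC content of the 11 windows was 48.5%, equal to that of all IDR windows and above the 33.7% of promoters. Base composition differed within the 11, with 31.7% in the lin-35 window, 33.7% in jmjd-1.2, 28.7% in lin-61 and 61.4% in set-16.

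Of the 8 SWI/SNF and ISWI genes, swsn-3, an accessory subunit gene, was bound. Its peak, chrIII:2768613-2769056, had a signal of 127 at rank 371, with 58.7 in replicate 1 (rank 478) and 66.6 in replicate 2 (rank 327). The summit was 156 bp upstream of swsn-3 and within an intron of cox-6B, a cytochrome c oxidase subunit gene on the opposite strand; it was the only one of the 11 summits not in intergenic sequence. The pooled list held 7 of the 8 genes (87.5%, exact 95% interval 47.3% to 99.7%), beside 15.8% of all genes. A summit in that list alone is not a call of binding. Apart from swsn-3, the pooled −log10 q of these genes ran from 0.148 to 1.61, below 2. swsn-1 had a pooled signal of 67.5 at rank 1073 and swsn-7 had 66.3 at rank 1125. swsn-6 followed with 63.7 at rank 1217, and swsn-2.2 with 57.6 at rank 1552. All 4 are SWI/SNF subunit genes, and all 4 were in both replicate lists. Their −log10 q in replicate 2 was low, from 0.0891 (swsn-1) to 0.782 (swsn-7). The strongest replicate 2 summit of swsn-1 lay downstream of the gene start, whereas its pooled and replicate 1 summits lay upstream. mrg-1, the MRG15-like chromodomain gene, was bound, with a signal of 110.3 at rank 467 (chrIII:12874680-12875123). It had 66.1 in replicate 1 (rank 394) and 44.3 in replicate 2 (rank 688), and in replicate 2 the −log10 of its q-value, the authors' measure of false discovery, was 1.86. The summit lay between mrg-1 (246 bp) and spcs-2 (129 bp).

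Windows of 101 bases around 3 weaker summits, on the plus strand of RefSeq WBcel235, are given because each holds GGTGT: chrIII:2768785-2768885 (swsn-3), chrIII:12874852-12874952 (mrg-1) and chrIII:13643690-13643790 (set-16). The window of set-21, the weakest of the 11, held no GGTGT and is not shown. Capitals mark GGTGT in either orientation.
swsn-3: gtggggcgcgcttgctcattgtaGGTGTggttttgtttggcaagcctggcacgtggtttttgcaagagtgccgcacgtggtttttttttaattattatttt
mrg-1: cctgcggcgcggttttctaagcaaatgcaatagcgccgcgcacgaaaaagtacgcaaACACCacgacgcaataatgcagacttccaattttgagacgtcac
set-16: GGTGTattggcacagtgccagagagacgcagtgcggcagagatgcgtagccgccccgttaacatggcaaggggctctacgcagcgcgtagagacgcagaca

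**Figure D3:**
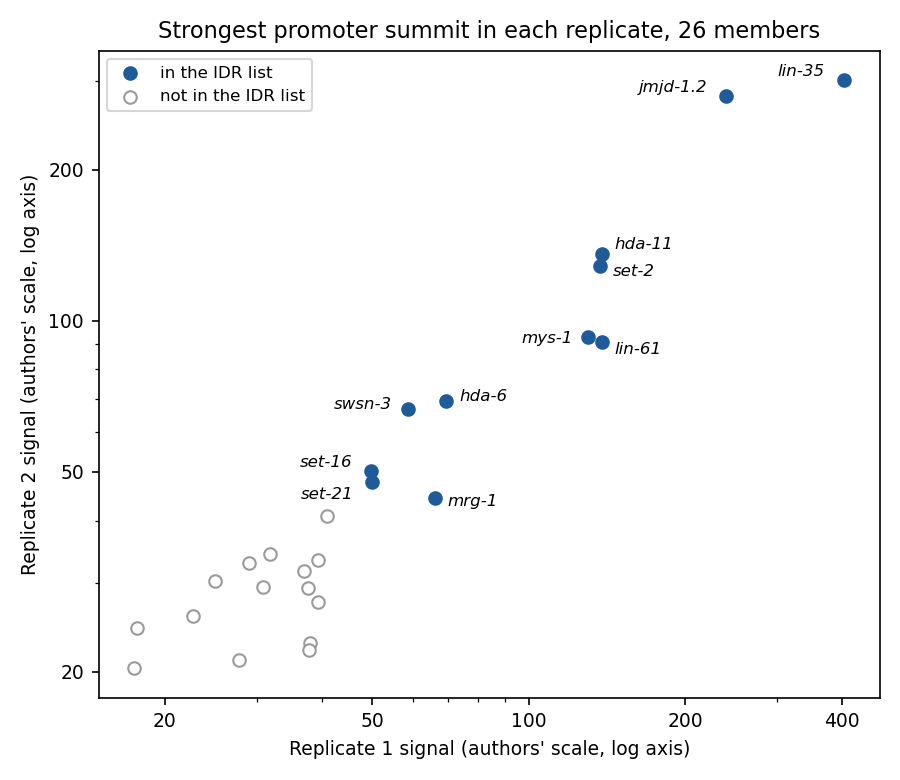
Each point is 1 of the 26 genes with a promoter summit in both replicate lists, placed by its signal in replicate 1 and in replicate 2 on the authors' scale (log axes); filled points are in the IDR list. The lowest filled points are set-16 and set-21 near 50 in replicate 1 and mrg-1 at 44.3 in replicate 2, and the highest is lin-35 at 404 and 302. Every open point is at or below 41.0 in replicate 1.

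Over the 11 bound genes the replicate signals had a Spearman correlation of 0.909, and over the 26 genes in both replicate lists it was 0.886. These are descriptions: the points share the 2 libraries and 1 control. The 11 genes passed the IDR procedure, which keeps peaks that rank alike in both replicates, so their agreement is partly set by that selection. The 26 include these 11, and each needed a summit in both lists. The replicate summits lay close to the IDR summit, at 1 to 38 bp (median 9) in replicate 1 and 0 to 52 bp (median 6) in replicate 2. The widest gap between replicates, 51 bp, was at set-21. The deposited −log10 q was 2.97, the highest value of the list, for 9 of the 11, with 2.52 at set-16 and 2.37 at set-21.

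All 11 summits were upstream of the gene start, beside 97.0% of all bound genes, and the median was 245 bp for both. Of the 11, 8 (72.7%, exact 95% interval 39.0% to 94.0%) also lay in the promoter of another gene, beside 62.8% of all bound genes. All 8 were divergent pairs, and the partner's start was nearer in 5. When each summit was given to the nearest start alone, lin-35, lin-61, mrg-1, set-16 and set-21 were no longer bound, leaving 6 of 83 (7.23%) beside 2.12% of all genes. None of the 83 genes held an IDR summit within its body outside the promoter. The IDR summit nearest to the start of an unbound gene was 2519 bp upstream of hda-4.

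**Figure D4:**
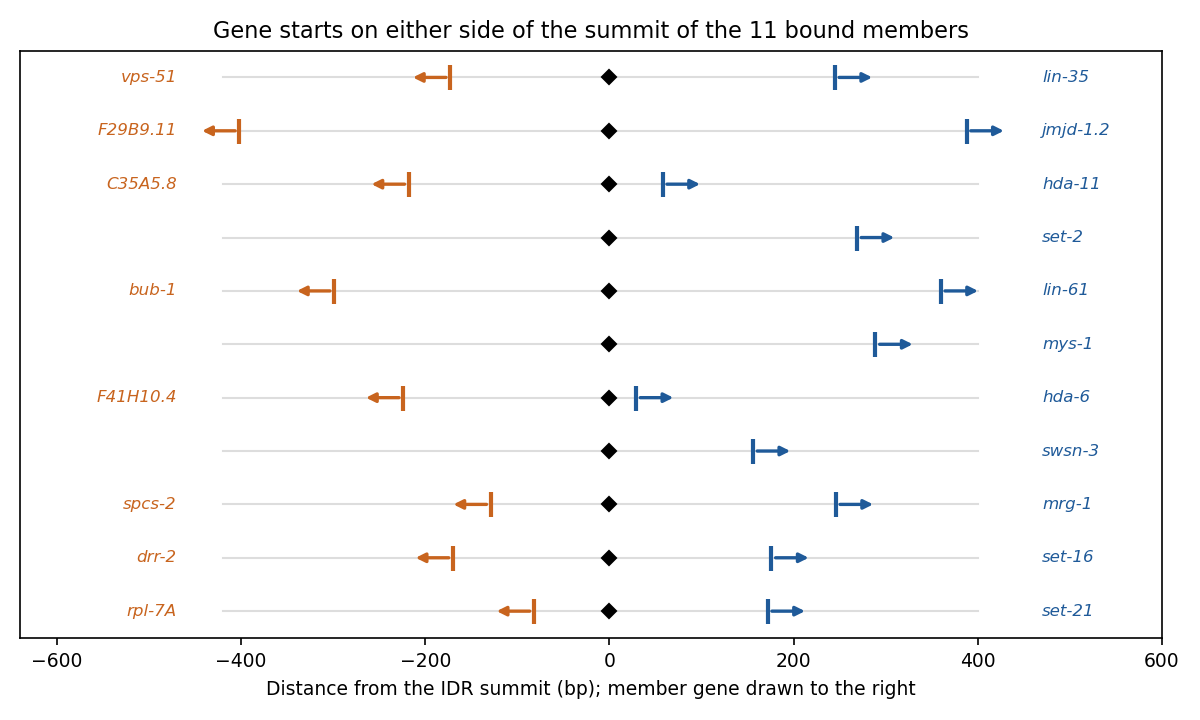
Gene starts (bars, with arrows in the direction of transcription) around the IDR summit (diamond) of each of the 11 bound genes, ordered by signal; the x axis is the distance from the summit in bp, with the bound gene drawn to the right in blue and a divergent neighbour to the left in orange. In 8 rows the summit lies between 2 starts, from 82 bp (rpl-7A) to 402 bp (F29B9.11) from the neighbour.

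The 24 genes in the pooled list but not in the IDR list had ranks from 855 to 7512 (median 2266.5) and signals from 34.2 to 75.8. Of these, 22 were in replicate 1, 17 in replicate 2 and 15 in both. The pooled −log10 q of the 24 ran from 0.0423 to 2.06, and 1 of them reached 2. Over all 35 genes in the pooled list the median rank was 1164, beside 2861 for all 3154 genes with a pooled summit. A group of 37 genes had no summit in any list: dpl-1, lin-52, mes-2, mes-3, met-2, spr-5, mys-2, hpl-1, hda-2, hda-3, hda-4, hda-5, hda-10, jmjd-1.1, jmjd-3.1, jmjd-3.2, jmjd-3.3, jmjd-5, set-3, set-5, set-8, set-9, set-10, set-11, set-12, set-13, set-14, set-18, set-19, set-22, set-23, set-24, set-26, set-27, set-28, set-31 and set-32. Most of their promoters were unique sequence at a word length of 36 (median 0% non-unique, highest 33.7% at set-28). The share of all protein-coding genes in no list was not computed. The replicate 1 list, the longest, held a promoter summit for 24.7% of all genes, so absence from a list is common among genes in general.

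Of 143 further chromatin and cell cycle genes listed by name, 137 matched the annotation and 15 were bound (10.9%, exact 95% interval 6.26% to 17.4%), beside 3.12% of all genes. The strongest was chaf-2, a chromatin assembly factor subunit gene, with a signal of 503 at rank 11. btf-1, a BTAF1-like remodeller gene, had 202 at rank 156, and rcor-1, a CoREST-like corepressor gene, had 200.3 at rank 159. nasp-2, a histone chaperone gene, had 157 at rank 251. Histone chaperones accounted for 4 of these genes, 4 of 16. rbbp-5, a COMPASS subunit gene, had 156 at rank 255, beside set-2 of the same complex at 269. ruvb-1, an AAA+ ATPase gene of Tip60 and INO80 complexes, had 151 at rank 267, and cbp-1, the CBP/p300 acetyltransferase gene, had 147 at rank 288. unc-85, an Asf1-like histone chaperone gene, had 117 at rank 421. The summits of chaf-2, nasp-2, rbbp-5 and ruvb-1 also lay in the promoters of Y71G12B.30, C50B6.3, tpp-2 and tofu-1, in that order. None of 22 cell cycle regulator genes was bound, with an exact 95% upper limit of 15.4% (13.6% by the limit of 3 counts). None of 11 other synMuv genes was bound, with an upper limit of 28.5% (27.3% by the limit of 3 counts). Both limits are above the 3.12% of all genes, so these counts do not set either group apart. With a window from 500 bp upstream to 100 bp downstream, 10 of the 137 genes were bound, beside 2.46% of all genes. In that window nasp-2 (990 bp upstream), cbp-1 (897 bp) and unc-85 (515 bp) were no longer counted, nor were lin-59 and the chaperone gene hira-1.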

How the data were processed

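ChIP-seq peak lists of 2 biological replicates (1 group) were used: an IDR list, a pooled list and 1 list per replicate, all on ce11. Per the deposited metadata, replicate lists came from 1 replicate's alignment each and the pooled list from both, all against 1 shared control, and those 3 lists fed the IDR step. The aligner and peak caller are not given in the sources used here, nor is read depth; control reads and the ce10 lists were not used here. Peak strength is the signal (column 7) deposited by the authors, and column 9 holds the deposited −log10 q-value; ranks use the signal. Summits (start plus offset) were placed on Ensembl release 115 protein-coding genes of WBcel235, which is ce11, and sequence was read from RefSeq WBcel235. Python 3.11.15, pandas 2.3.3, NumPy 2.4.6, SciPy 1.17.1 and matplotlib 3.10.9 were used, and the assignment and word searches were tested on simulated data.

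The genes and lists were chosen with earlier results of these data known. Named genes were every bound gene, up to 10 others with the best pooled rank, lin-35, efl-1 and dpl-1, up to 8 of the further chromatin list, and the genes in no list. Outside this rule, lin-37, mes-4, mes-6, hpl-2, hda-1, jmjd-4, lsd-1 and set-25 were named after their values were seen. No test was made, since 1 group gives no contrast; shares carry exact (Clopper-Pearson) 95% intervals, for counting error alone. Where none was bound, 3 counts of the total are given as a further limit. Alternatives were other promoter windows, transcript starts, the nearest start, stricter peak lists, closer replicate summits, each replicate alone, summits away from small RNA genes, genes sharing a summit counted once, ranks by q-value and wider word windows. The six-mers were added after the data were seen.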

Additional observations from a re-analysis of the deposited data

How the results depend on the processing

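The same 11 genes were bound with promoter windows of 500 to 2000 bp upstream and any transcript start. Of all genes, 2.46% were bound with the narrower window, 4.04% with the wider and 3.36% with any transcript start. The 11 also stayed bound with a replicate summit within 100 bp (3.06% of all genes) and without summits beside small RNA genes (2.90%). With each replicate alone the same 11 were bound both times, beside 597 to 617 of all genes. The replicate results are largely set in advance, since the 11 passed an IDR procedure that used both replicates. Giving each summit to its nearest gene start left 6 bound, beside 423 of all genes (2.12%). The DREAM, other synMuv B and NuRD, and chromodomain classes then had 0 and the SET class 1. The 345 strongest peaks left 7 bound, beside 375 of all genes, with 1 in the SET class and 0 in the SWI/SNF and chromodomain classes. The 24 listed genes alone gave 3. Ranking by −log10 q moved the median rank from 128 to 234.5, since 468 of the 690 peaks tie at the highest value. The median summit position ran from -246 to -210 bp with 1 replicate left out. A −log10 q of at least 2 in the pooled list gave 12 (met-1 added), beside 741 of all genes (3.71%). Summits within 50 bp in both replicates gave 10 (set-21 lost), beside 552 of all genes (2.76%). The further chromatin list gave 10 and 17 of 137 bound with the narrower and wider promoter windows, beside 15 with the main window. The same narrower and wider windows gave 2.46% and 4.04% of all genes. Words within 100 bp in place of 50 bp gave GGTGT at 5 of the 11 genes, TTTGAA at 7, and GCGCGAA and TTCGAA at 1 each; the other 5 words kept their counts. Depth is unknown, and 905 of the 8759 pooled peaks reach a −log10 q of 2.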

Other observations

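No promoter of the 14 genes of the set on chromosome II or of the 15 on chromosome X was bound, while chromosome III had 4 of 17; all protein-coding genes gave 123 bound of 3449 on II, 47 of 2731 on X and 136 of 2640 on III. Beyond the promoter windows, 2 IDR summits lay within 500 bp downstream of the end of set-22, with signals of 118 and 87.5 (ranks 418 and 672), and both were in the promoters of snf-10 and pap-1. The promoter of set-25 held 73.1% non-unique words of 36 bases, the single promoter of the 83 above 50%, and that of the bound gene set-21 held 31.6%. Further chromatin genes with bound promoters, named after their values were seen, were lin-59 (signal 114), wdr-5.3 (109.6), cec-3 (107), hira-1 (101), bet-2 (97.5), jmjc-1 (97.4) and sor-3 (94.0). The summits of wdr-5.3, cec-3 and jmjc-1 also lay in promoters of other genes.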
